A study of Mus musculus with 8 samples.

Results

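Open chromatin around 9 genes of rod photoreceptors was examined in ATAC-Seq peak lists of retinal ganglion cells (RGCs) that had been sorted after optic nerve crush (ONC). The genes were Nrl, Nr2e3, Crx, Gnat1, Pde6a, Pde6b, Cnga1, Sag and Prph2. All peaks of the 8 lists were merged into 189914 regions wherever they shared at least 1 bp, and 72 of these regions overlapped a rod gene or the 10 kb on either side of it. A peak in all 8 lists was found in 34 of the 72 regions and in 69493 of all regions. The genes were selected on earlier results of the same lists, in which a region inside Cnga1 and the rod genes as a group stood out between Ezh2 and GFP. The comparison of Ezh2 with GFP is therefore a description here, with no test. The other 2 comparisons were tested, but each shares the GFP or the Ezh2 lists with the comparison by which the genes were chosen.

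Rods are the light-sensing cells that carry dim-light vision, and they are the most abundant neurons of the mouse retina, whereas RGCs are its output neurons and send their axons through the optic nerve. Rod identity is set by a small group of transcription factors. Crx acts in both kinds of photoreceptor, Nrl directs precursors to the rod fate, and its target Nr2e3 represses cone genes. In the phototransduction cascade, light-activated rhodopsin stimulates the G protein transducin (Gnat1 encodes its rod alpha subunit), transducin activates a phosphodiesterase whose catalytic subunits are encoded by Pde6a and Pde6b, and the resulting drop of cGMP closes a channel with a subunit encoded by Cnga1. Arrestin, encoded by Sag, ends the signal, and Prph2 encodes peripherin-2, a membrane protein of the outer segment discs. Ezh2 is the methyltransferase of Polycomb repressive complex 2, which places the repressive mark H3K27me3 on histone H3.

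C57BL/6J mice, adults of 6 to 10 weeks by the study's methods, received AAV2 in the vitreous. The virus carried GFP in the controls (3 libraries), Ezh2 (3 libraries) or Ezh2-Y726D, an Ezh2 with an amino acid change that removes its methyltransferase activity (2 libraries). All groups had ONC 2 weeks after the virus, and Thy1-positive live cells were sorted 3 days after ONC, 50000 per library. The promoter of the viral constructs and the number of pooled animals are not given in the sources used here, Thy1 is also carried by T cells, and nothing states that libraries of a group came from separate animals, so the spread between them may be technical.

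The DNA around the start sites is shown for the 3 genes whose start-site peak was missing from libraries with Ezh2 (Cnga1, Pde6b and Nr2e3) and, for comparison, for Sag and Crx, whose start-site peak was present in every library. Each RefSeq promoter window (GRCm38.p6) runs 5′ to 3′ along the strand of the gene, from 250 bases before to 50 bases after the start site. Capitals mark TAATCC, a core element bound by Crx and the related Otx factors, and TGCTGAC, a Maf half-site bound by Nrl, searched on both strands, so that GGATTA marks the first motif on the other strand. The windows lie at chr5:72642703-72643002 for Cnga1 (minus strand), chr5:108388123-108388422 for Pde6b (plus strand), chr9:59950030-59950329 for Nr2e3 (minus strand), chr1:87803430-87803729 for Sag (plus strand) and chr7:15879906-15880205 for Crx (minus strand).
Cnga1: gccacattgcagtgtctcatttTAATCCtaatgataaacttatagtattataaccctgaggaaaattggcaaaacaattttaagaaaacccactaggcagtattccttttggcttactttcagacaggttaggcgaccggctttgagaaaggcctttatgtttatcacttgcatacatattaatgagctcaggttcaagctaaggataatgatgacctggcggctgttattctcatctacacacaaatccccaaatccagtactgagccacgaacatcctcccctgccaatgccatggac
Pde6b: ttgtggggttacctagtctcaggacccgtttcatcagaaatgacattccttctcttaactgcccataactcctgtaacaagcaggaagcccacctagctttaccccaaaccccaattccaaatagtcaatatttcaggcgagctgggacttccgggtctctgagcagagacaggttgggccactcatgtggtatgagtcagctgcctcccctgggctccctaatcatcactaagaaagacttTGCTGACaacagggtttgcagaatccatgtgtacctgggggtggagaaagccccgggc
Nr2e3: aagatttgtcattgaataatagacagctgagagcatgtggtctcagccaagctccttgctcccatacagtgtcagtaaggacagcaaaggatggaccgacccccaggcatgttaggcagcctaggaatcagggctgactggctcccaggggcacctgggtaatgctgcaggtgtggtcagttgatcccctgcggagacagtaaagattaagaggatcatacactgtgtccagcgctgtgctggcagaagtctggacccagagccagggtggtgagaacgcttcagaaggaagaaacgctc
Sag: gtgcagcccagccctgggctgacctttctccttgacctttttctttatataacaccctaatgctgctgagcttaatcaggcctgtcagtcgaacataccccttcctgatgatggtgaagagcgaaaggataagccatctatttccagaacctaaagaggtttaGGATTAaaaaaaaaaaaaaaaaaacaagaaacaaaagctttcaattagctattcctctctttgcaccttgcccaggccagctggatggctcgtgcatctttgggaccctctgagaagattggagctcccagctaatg
Crx: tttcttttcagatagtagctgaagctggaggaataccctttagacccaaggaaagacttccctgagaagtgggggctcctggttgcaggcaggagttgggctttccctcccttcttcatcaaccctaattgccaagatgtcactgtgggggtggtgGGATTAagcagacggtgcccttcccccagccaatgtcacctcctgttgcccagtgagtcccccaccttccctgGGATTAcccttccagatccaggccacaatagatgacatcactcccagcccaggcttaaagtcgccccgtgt

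Promoter windows were given for 7 of the 9 genes, the others being Pde6a and Gnat1. TAATCC was found in 3 of the 7 (Cnga1, Sag and, at 2 positions, Crx) and TGCTGAC in 1 (Pde6b), and no marked match overlapped another. The window of Prph2, which is not shown, held neither motif, and its start-site peak was also present in every library. Over all 21263 promoter windows of the table, 6.42% held TAATCC and 4.30% held TGCTGAC. With positions counted from the start site along the gene's strand, the TGCTGAC of Pde6b began at -8, and the peak summits of the 3 GFP lists lay at 5, 4 and -4, at or next to the motif. In Cnga1, TAATCC began at -228, while the GFP summits lay at -37, -30 and -54. In Crx the matches began at -94 and -21, and the summits of all 8 lists lay between -2 and 35. A match of letters does not show that a factor was bound.

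Each deposited list gives, for every peak, a fold over the local background of the same library. Lists held 112939 to 133674 peaks with GFP, 126271 to 135895 with Ezh2 and 124666 to 128728 with Ezh2-Y726D, and no read numbers are given, so depth is unknown and a missing peak means only that none was called. Folds were therefore compared as percentiles within a list, 100 being its strongest peak. As a check of the transgene, 3, 5 and 6 of 13 regions over Ezh2 itself had a peak in the GFP lists, 8, 10 and 9 in the Ezh2 lists and 4 and 4 in the Ezh2-Y726D lists. The Ezh2-Y726D libraries lay within the GFP range, so the check did not show the transgene there. The regions were not placed on exons. Peaks from virus DNA and open chromatin of the gene itself were therefore not told apart in the Ezh2 libraries. Thy1, the surface marker of the sort, had a peak in all 8 lists, and 9 to 11 of 11 RGC marker genes with a start window had a peak there. In sorted bulk cells, a smaller share of rods and less open rod chromatin per cell cannot be told apart.

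Peaks around the rod genes were fewer with both forms of Ezh2 than with GFP. The 9 gene windows together held 60, 58 and 60 peaks in the GFP lists (59.3 ± 1.15, SD, n = 3), 52, 54 and 49 in the Ezh2 lists (51.7 ± 2.52, n = 3) and 48 and 53 in the Ezh2-Y726D lists (50.5 ± 3.54, n = 2). The GFP range overlapped neither of the others, while the ranges of list length overlapped, and no test was made on these sums. All 9 genes had at least 4 peaks in every list except Crx, with 3 in GFP replicate 2. With Ezh2-Y726D, peak numbers lay below the whole GFP range in 3 of 9 genes (Nr2e3, Cnga1 and Pde6a), against a background of 10.3% of 21900 protein-coding gene windows, and above it in 1 gene (Nrl), against 7.20%. Between Ezh2 and Ezh2-Y726D, Sag alone had ranges apart and was higher with Ezh2 (1 of 9, background 17.9%), while 0 of 9 were lower (background 6.92%). Between Ezh2 and GFP, which chose the genes, 3 of 9 were lower with Ezh2 (Nr2e3, Pde6a and Pde6b, background 2.11%) and 0 of 9 higher (background 6.92%). An exact permutation test of 3 against 2 libraries cannot give a two-sided p below 0.1, so no single gene could pass.

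**Figure D1:**
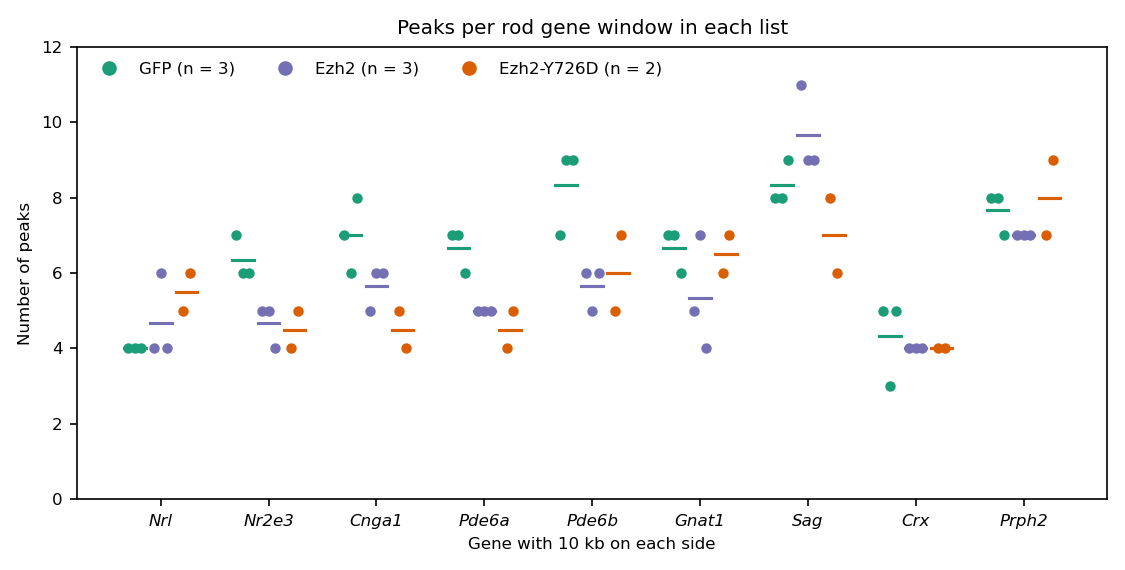
Number of peaks (y axis) in the window of each rod gene with 10 kb on each side (x axis), with 1 point per library and a line at the group mean. The 3 GFP points of Nr2e3 (6 to 7) and Pde6a (6 to 7) lie above all points of the other groups (4 to 5 for both genes), whereas Sag reaches 9 to 11 with Ezh2.

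Region by region, the differences did not all run one way. The peaks at the start sites of Cnga1 and Pde6b were missing from every Ezh2 list, and also from Ezh2-Y726D replicate 1. Other regions inside or beyond the same genes ranked higher with Ezh2 than with GFP. With Ezh2-Y726D, several regions inside the genes had no peak at all. The regions are numbered below by their order along the chromosome within each gene's window, and the grid of percentiles shows all 72 in every library.

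**Figure D2:**
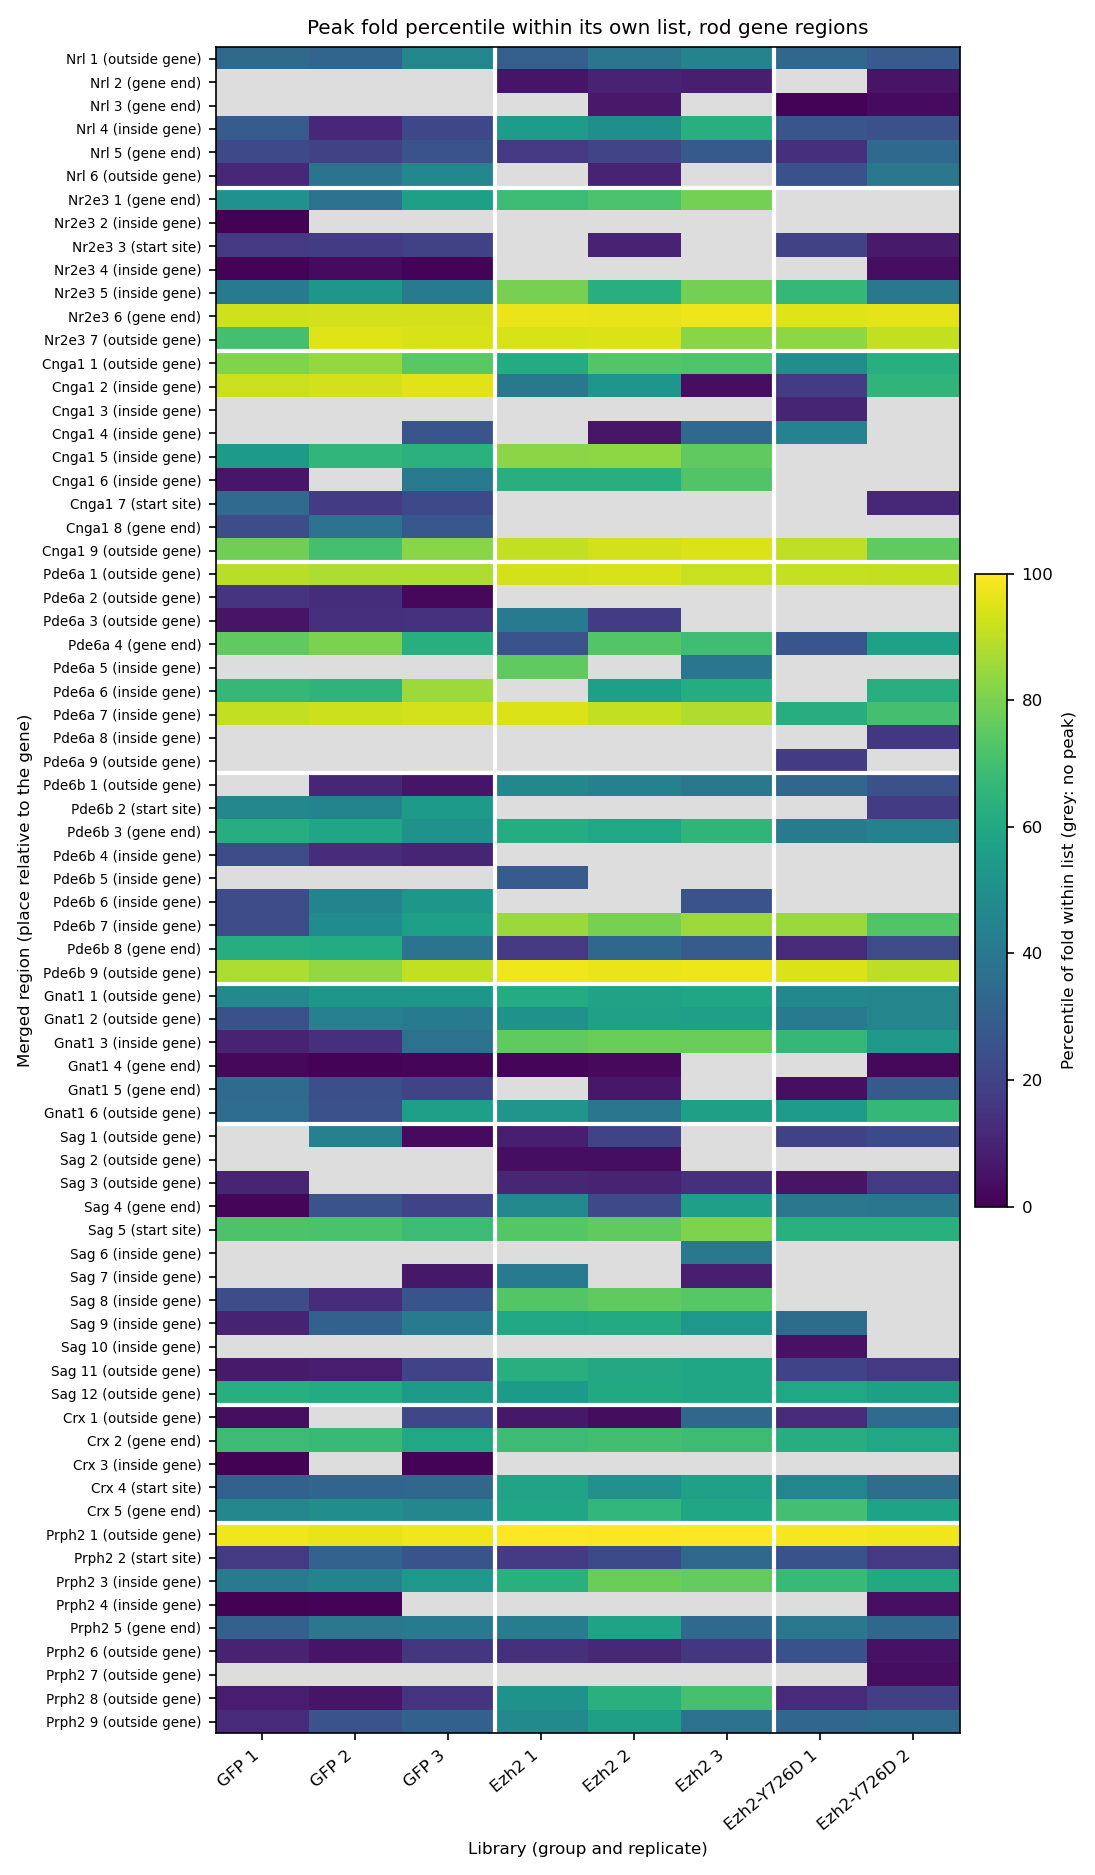
Percentile of peak fold within its own list (colour, 0 to 100) for 72 merged regions at 9 rod genes (rows, with the place of each region relative to its gene) in 8 libraries (columns), with grey where no peak was called. At the start sites of Cnga1 and Pde6b, grey cells fall in the Ezh2 columns and in that of Ezh2-Y726D replicate 1. At Nr2e3 1, Cnga1 5, Cnga1 6 and Sag 8 they fall in the Ezh2-Y726D columns.

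Start sites were compared first. Among the 7 genes with a promoter window, 6, 6 and 6 had a peak over it in the GFP lists, 3, 4 and 3 in the Ezh2 lists and 4 and 6 in the Ezh2-Y726D lists. The start-site peak of Pde6b (chr5:108388189-108388967) ranked at percentiles 45.7, 45.2 and 54.5 with GFP, was absent from all 3 Ezh2 lists and from Ezh2-Y726D replicate 1, and ranked at 17.8 in Ezh2-Y726D replicate 2. That of Cnga1 (chr5:72642618-72643003) ranked at 35.1, 17.8 and 22.0 with GFP, was absent from all 3 Ezh2 lists and from Ezh2-Y726D replicate 1, and ranked at 11.6 in Ezh2-Y726D replicate 2. In the GFP lists, the folds at these start sites were 3.59 to 4.05 for Cnga1 and 4.49 to 5.05 for Pde6b. Of all 17492 genes with a promoter window, 26 had a start-site peak in all GFP lists and in no Ezh2 list. For the 7 rod genes the count was 2, a description only, since this comparison chose the genes. A neighbouring region of Cnga1 (chr5:72643629-72643977, centred at -1051 from the start site) ranked at 23.6, 37.6 and 27.0 with GFP and had no peak with either form of Ezh2.

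The start-site region of Nr2e3 (chr9:59949956-59950331) ranked at 16.6, 18.0 and 19.2 with GFP, was called in 1 of 3 Ezh2 lists (10.0) and ranked at 19.3 and 7.14 with Ezh2-Y726D. The 3 remaining start-site regions were present in every list. Sag (chr1:87802961-87804328) had the strongest of them, at 72.1, 71.2 and 68.5 with GFP, 73.5, 75.7 and 80.5 with Ezh2 and 63.6 and 63.3 with Ezh2-Y726D. Its groups did not overlap, but neither tested comparison passed (Ezh2-Y726D minus GFP, -0.29 ± 0.18, SE, adjusted p = 0.352, and Ezh2 minus Ezh2-Y726D, 0.50 ± 0.18, adjusted p = 0.0891, limma). These differences are in normal scores, to which ranks within a list were converted, so that 1 unit is 1 SD over all regions tested, and p-values were adjusted over 69493 regions with the Benjamini-Hochberg method.

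The Crx start site (chr7:15879450-15880282) ranked at 30.5, 32.5 and 32.9 with GFP, 58.4, 50.5 and 57.1 with Ezh2 and 45.8 and 35.9 with Ezh2-Y726D. The Ezh2-Y726D values lay between the other groups, and neither comparison passed (0.22 ± 0.19 against GFP, adjusted p = 0.513, and 0.41 ± 0.19 for Ezh2 minus Ezh2-Y726D, adjusted p = 0.175, limma). The Prph2 start site (chr17:46910116-46910778) ranked at 17.1, 31.6 and 25.8 with GFP, 17.3, 22.4 and 33.7 with Ezh2 and 25.0 and 16.9 with Ezh2-Y726D, and its groups overlapped throughout. No list had a peak over the promoter window of Nrl, which lies inside the annotated gene. Region 5 of Nrl, over the annotated 5′ end of the gene (position 55524981), had a peak in all 8 lists. In the order of GFP levels, Sag stood above Pde6b and Pde6b above Crx, Prph2, Cnga1 and Nr2e3, and of these the Crx, Prph2 and Cnga1 ranges overlapped one another, as did those of Prph2, Cnga1 and Nr2e3.

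**Figure D3:**
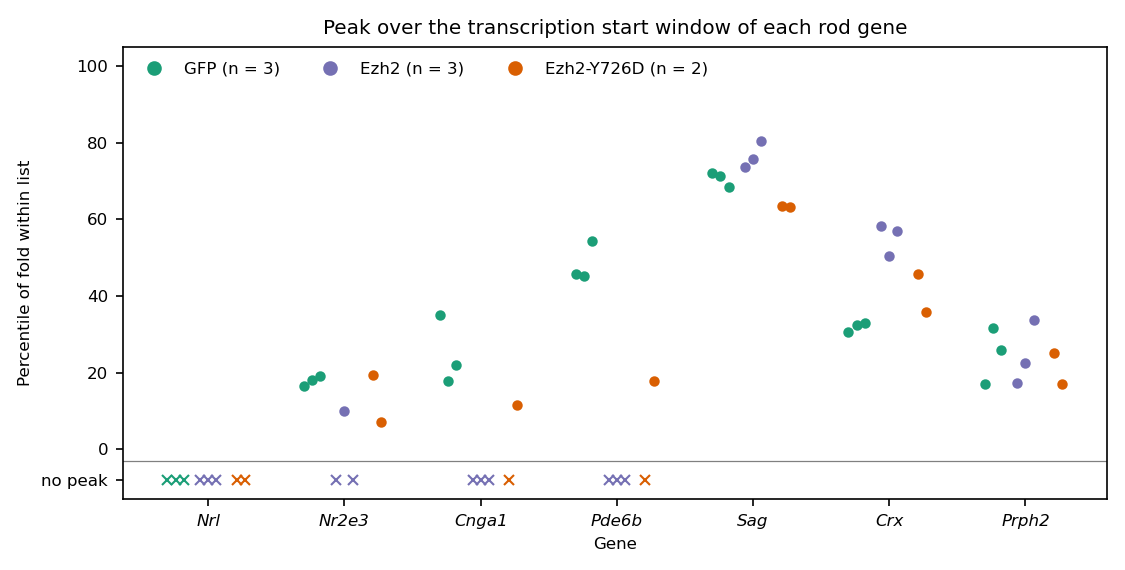
Percentile of fold within the list (y axis) of the peak over the promoter window of each rod gene (x axis), with 1 point per library and a cross where no peak was called. Cnga1 and Pde6b each have 3 GFP points, 1 Ezh2-Y726D point and no Ezh2 point, and Sag, Crx and Prph2 have a point in every library.

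Among the transcription factor genes, Nrl (chromosome 14) had 6 regions. Its region 4, inside the gene (chr14:55520221-55521524), ranked at 28.8, 11.6 and 21.7 with GFP, 54.8, 49.8 and 62.9 with Ezh2 and 26.9 and 24.9 with Ezh2-Y726D. All Ezh2 libraries lay above the rest, and Ezh2-Y726D lay within the GFP range. Ezh2 exceeded Ezh2-Y726D by 0.82 ± 0.20 (adjusted p = 0.0268, limma), while Ezh2-Y726D minus GFP was 0.19 ± 0.20 (adjusted p = 0.623). At the gene end, region 2 had a weak peak with Ezh2 (5.61, 9.84 and 8.24), none with GFP and 1 with Ezh2-Y726D (5.36 in replicate 2), and region 3 had weak peaks in both Ezh2-Y726D lists (1.07 and 2.94), 1 Ezh2 list (6.73) and no GFP list. Region 5 (chr14:55524816-55525161) covered the annotated 5′ end of the gene, centred at -736 from the start site of the promoter window. It ranked at 19.3 to 25.8 with GFP, 16.6 to 28.2 with Ezh2 and 13.5 to 34.3 with Ezh2-Y726D, with no separation. Region 1, the highest of the Nrl window by its mean percentile over all 8 lists (range 28.5 to 45.8), sits at the end of the neighbouring gene Cpne6, and region 4 ranked above it in every Ezh2 list.

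Nr2e3 (chromosome 9) showed a missing region with the inactive enzyme. Region 1, at the gene end opposite the start site (chr9:59940715-59942519), ranked at 50.7, 37.5 and 56.8 with GFP and 68.4, 71.7 and 79.2 with Ezh2, and neither Ezh2-Y726D list had a peak there. Region 4, centred at -1120 from the start site, had very weak peaks with GFP (0.81, 2.74 and 0.90), none with Ezh2 and 1 with Ezh2-Y726D (3.55). Region 6 (chr9:59959143-59959959), the highest by the mean over all lists, was near the top of every list, at 92.7 to 93.6 with GFP, 96.6 to 97.5 with Ezh2 and 95.2 to 95.8 with Ezh2-Y726D. These ranges did not overlap, yet the difference of Ezh2-Y726D from GFP was 0.21 ± 0.16 (adjusted p = 0.474, limma) and that of Ezh2 from Ezh2-Y726D 0.21 ± 0.16 (adjusted p = 0.428).

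In Crx (chromosome 7), region 2 at the gene end was the highest by the mean over all lists, at 60.1 to 68.5 with GFP, 68.7 to 69.8 with Ezh2 and 60.1 and 62.3 with Ezh2-Y726D. Region 5, shared with the end of Crxos, ranked at 45.9 to 49.6 with GFP, 58.6 to 66.0 with Ezh2 and 70.2 and 57.8 with Ezh2-Y726D. No Crx region was called in a tested comparison, and none had a peak in every list of a group and in no list of another.

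Of the cascade genes, Gnat1 (chromosome 9) showed a rise inside the gene. Region 3 (chr9:107675678-107676666) ranked at 9.44, 13.4 and 37.8 with GFP, 75.6, 77.5 and 77.3 with Ezh2 and 66.7 and 53.9 with Ezh2-Y726D. Every library with either form of Ezh2 lay above every GFP library. Ezh2-Y726D exceeded GFP by 1.18 ± 0.24 (adjusted p = 0.0184, limma), and Ezh2 exceeded Ezh2-Y726D by 0.60 ± 0.24 (adjusted p = 0.131). Here and for the other regions, the replicate blocks aside, losses of a call are given in full. The call was lost without Ezh2-Y726D replicate 1 (difference 0.97, adjusted p = 0.143) and with −log10 p ranked in place of fold (0.48, adjusted p = 0.126). Region 5, at a gene end (chr9:107679345-107680214), ranked at 35.0, 24.6 and 20.7 with GFP, 6.32 in 1 of 3 Ezh2 lists and 4.15 and 28.4 with Ezh2-Y726D. It was absent from the other 2 Ezh2 lists, Ezh2-Y726D replicate 2 lay within the GFP range, and with peaks missing it was not tested. Region 1, the highest of the window by the mean over all lists (45.5 to 61.6), sits at the end of Slc38a3, but region 3 ranked above it in every library with either form of Ezh2.

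In Pde6a (chromosome 18), region 7 inside the gene (chr18:61245707-61246629) was among the strongest regions of the GFP lists (91.0, 92.4 and 93.0) and of the Ezh2 lists (94.6, 90.7 and 87.9), but ranked at 62.2 and 70.6 with Ezh2-Y726D. Both Ezh2-Y726D libraries lay below all others. It fell by 1.26 ± 0.20 from GFP to Ezh2-Y726D (adjusted p = 0.00768, limma), and Ezh2 exceeded Ezh2-Y726D by 1.17 ± 0.20 (adjusted p = 0.00562). Both calls were lost without Ezh2-Y726D replicate 1 (-1.13, adjusted p = 0.0710, and 1.05, adjusted p = 0.0559). Outside the gene, region 2 had a peak in the 3 GFP lists only (15.3, 13.1 and 2.25), and region 3 had one in the 3 GFP lists (5.18, 13.5 and 14.8) and in 2 Ezh2 lists (40.8 and 17.2) but in neither Ezh2-Y726D list. The gene-end region 4 ranked at 62.5 to 80.2 with GFP, 25.6 to 73.3 with Ezh2 and 26.9 and 57.1 with Ezh2-Y726D, with overlap between Ezh2 and both other groups. Region 1, at the end of Slc26a2, was the highest by the mean over all lists and lay between 87.6 and 93.8 in every one, although region 7 ranked above it in every GFP list.

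In Pde6b (chromosome 5), regions inside the gene moved in both directions. Region 7 (chr5:108427029-108427696) ranked at 23.2, 48.5 and 56.6 with GFP, 84.9, 79.3 and 85.3 with Ezh2 and 84.9 and 72.9 with Ezh2-Y726D, so that both forms of Ezh2 lay above GFP. The rise with Ezh2-Y726D was 1.16 ± 0.27 (adjusted p = 0.0306, limma). Region 8, at the far end of the gene (chr5:108430965-108431600), ranked at 62.1, 61.4 and 38.2 with GFP, 16.6, 33.6 and 28.5 with Ezh2 and 11.8 and 23.1 with Ezh2-Y726D. It fell by 1.06 ± 0.28 with Ezh2-Y726D (adjusted p = 0.0473). The call for region 7 was lost without GFP replicate 1 (adjusted p = 0.0615), without Ezh2-Y726D replicate 1 (0.216), without Ezh2-Y726D replicate 2 (0.0594), over regions with a peak in at least 6 lists (0.0556) and with −log10 p ranked (difference 0.48, adjusted p = 0.200). The call for region 8 was lost without any of 7 libraries, GFP replicate 3 being the exception, with adjusted p between 0.0525 and 0.250. Region 4 had peaks in the GFP lists only (23.0, 12.6 and 10.4), but those of GFP replicates 1 and 2 did not overlap and were joined through that of replicate 3. Region 6 had a peak in the GFP lists (23.0, 44.8 and 53.1), 1 Ezh2 list (25.4) and neither Ezh2-Y726D list. Region 9, at the end of Atp5k, was the highest by the mean over all lists and ranked at 83.8 to 90.9 with GFP, 97.3 to 97.7 with Ezh2 and 94.6 and 90.1 with Ezh2-Y726D.

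Cnga1 (chromosome 5) had the region by which the genes were chosen. This region 2, inside the gene (chr5:72608069-72608897), ranked at 91.8, 93.2 and 95.6 with GFP, 40.6, 52.5 and 3.83 with Ezh2 and 17.2 and 65.4 with Ezh2-Y726D. Its GFP folds were 9.43, 10.7 and 10.9, against 4.40, 4.85 and 2.62 with Ezh2 and 3.54 and 6.06 with Ezh2-Y726D, and all values are given as a description. Region 1, beyond the end of the gene (chr5:72600777-72601625), ranked at 81.1, 84.4 and 74.3 with GFP, 61.6, 73.2 and 72.6 with Ezh2 and 49.5 and 62.5 with Ezh2-Y726D. It fell by 0.90 ± 0.23 from GFP to Ezh2-Y726D (adjusted p = 0.0395, limma). That call was lost without GFP replicate 1 (adjusted p = 0.0940), GFP replicate 2 (0.104), Ezh2 replicate 3 (0.0512), Ezh2-Y726D replicate 1 (0.241) or Ezh2-Y726D replicate 2 (0.0870).

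Within Cnga1, the adjacent regions 5 and 6 had no peak in either Ezh2-Y726D list. Region 5 (chr5:72634452-72635311) ranked at 54.6, 65.7 and 63.9 with GFP and 82.5, 83.0 and 75.5 with Ezh2, and region 6 (chr5:72635642-72636880) at 5.92 and 40.9 in 2 GFP lists and 63.1, 63.2 and 73.0 with Ezh2. Both ranked above the GFP lists in every Ezh2 library. Region 9, the highest by the mean over all lists, sits at the end of Nipal1 and ranked at 70.4 to 82.0 with GFP, below region 2, 90.9 to 94.8 with Ezh2 and 90.4 and 75.7 with Ezh2-Y726D.

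In Sag (chromosome 1), region 8 inside the gene (chr1:87828139-87828845) ranked at 23.7, 12.7 and 26.0 with GFP and 73.4, 75.6 and 73.9 with Ezh2, and no Ezh2-Y726D list had a peak there. Region 11, beyond the gene's end (chr1:87846765-87847591), ranked at 7.19, 8.15 and 20.2 with GFP, 63.1, 60.5 and 59.4 with Ezh2 and 20.1 and 16.6 with Ezh2-Y726D. Ezh2 stood apart from both other groups, which overlapped. Ezh2 exceeded Ezh2-Y726D by 1.20 ± 0.19 (adjusted p = 0.00350, limma), a call kept in all 14 alternatives, while Ezh2-Y726D minus GFP was 0.29 ± 0.19 (adjusted p = 0.369). At the end of the gene before the start site, region 4 ranked at 1.81 to 25.8 with GFP, 22.2 to 56.3 with Ezh2 and 39.7 and 39.1 with Ezh2-Y726D.

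The Prph2 window (chromosome 17) held the highest of all 72 regions by the mean over all lists and the largest rise of Ezh2 over Ezh2-Y726D. Region 8, beyond the gene's end (chr17:46932876-46933475), ranked at 7.80, 5.79 and 15.3 with GFP, 50.9, 63.3 and 70.8 with Ezh2 and 12.3 and 19.0 with Ezh2-Y726D. As in region 11 of Sag, the Ezh2 libraries alone were high. Ezh2 exceeded Ezh2-Y726D by 1.32 ± 0.20 (adjusted p = 0.00353, limma), a call kept in all 14 alternatives, and Ezh2-Y726D minus GFP was 0.31 ± 0.20 (adjusted p = 0.394). Region 1, centred at -6320 from the start site (chr17:46903714-46904602), ranked at 96.7 to 97.9 with GFP, 99.3 to 99.8 with Ezh2 and 98.8 and 97.8 with Ezh2-Y726D. Region 3, inside the gene, ranked at 41.5, 45.2 and 53.3 with GFP, 63.3, 77.4 and 76.0 with Ezh2 and 67.4 and 60.6 with Ezh2-Y726D.

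Counted over the 72 regions, a peak in all Ezh2-Y726D and no GFP list was found in 1 (background 4.77% of 189914 regions) and the reverse in 8, or 11.1% (background 4.72%). The 8 regions were Nr2e3 1, Cnga1 5 and 8, Pde6a 2 and 3, Pde6b 4 and 6 and Sag 8. The 1 and 8 together became 17 without Ezh2-Y726D replicate 2 and 13 without replicate 1. A peak in all Ezh2 and no Ezh2-Y726D list was found in 4 (Nr2e3 1, Cnga1 5 and 6 and Sag 8, background 8.96%) and the reverse in 0 (background 6.14%). The 4 became 10 without Ezh2 replicate 2, 11 without Ezh2-Y726D replicate 1 and 8 without Ezh2-Y726D replicate 2. Between Ezh2 and GFP, 1 region had peaks with Ezh2 only (background 2.72%) and 6 with GFP only (background 1.68%), among them the start sites of Cnga1 and Pde6b, and without Ezh2 replicate 2 the count became 11. With a library left out the rule is looser, so each of these counts can only rise or stay the same. The shares over all regions with a library left out are not given, so nothing about the rod genes is read from the rises.

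By rank, 34 regions with a peak in every list could be compared, and the chosen region of Cnga1 was set aside. Of the other 33, 2 were higher with Ezh2-Y726D than with GFP (background 3.55% of 69493 regions) and 3 were lower (background 4.65%). Without Ezh2-Y726D replicate 1, the median difference over the 33 was 0.056 (all regions -0.021), and without replicate 2 it was 0.18 (all regions -0.0039). Without GFP replicate 1, limma called 2 of the 33 (backgrounds 2.10% higher and 2.81% lower). The calls numbered 3 without GFP replicate 2 (1.95% and 2.88%) and 3 without Ezh2 replicate 3 (3.49% and 4.40%). With −log10 p ranked in place of fold, 0 of the 33 were higher and 8 lower (backgrounds 2.99% and 7.09%), so that the split between higher and lower depends on the measure ranked. With Ezh2 against Ezh2-Y726D, 4 were higher (Nrl 4, Pde6a 7, Sag 11 and Prph2 8, background 7.0%) and 0 were lower (background 6.96%). At an unadjusted p under 0.05, limma placed 12 of the 34 higher and 0 lower, against 14.9% and 14.5% of all regions. The 4 calls became 2 without Ezh2-Y726D replicate 1, and that of Nrl 4 was lost without Ezh2 replicate 1 (adjusted p = 0.0652), Ezh2 replicate 3 (0.0710), Ezh2-Y726D replicate 1 (0.108) or Ezh2-Y726D replicate 2 (0.134), and with −log10 p ranked (0.0923). Between Ezh2 and GFP, 8 regions were past the same threshold upward (background 1.59%) and 1, that of Cnga1, downward (background 2.84%), which is given as a count only since this comparison chose the genes.

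The median difference over the 34 regions was 0.15 for Ezh2-Y726D minus GFP (all regions -0.014), 0.33 for Ezh2 minus Ezh2-Y726D (all regions 0.023) and 0.28 for Ezh2 minus GFP (all regions 0.010). With −log10 p ranked, the medians over the 33 regions without the chosen one were -0.24, 0.26 and -0.03, in place of 0.17, 0.34 and 0.30, so the first and the last changed sign. Ezh2 was above Ezh2-Y726D in 30 of the 33, compared with 52.0% of all regions. Other cell type lists had medians above that of all regions in this comparison too, at 0.26 for Müller glia genes (10 of 59 regions higher and 4 lower), 0.19 for RGC genes, 0.16 for amacrine genes and 0.14 for other rod genes, with bipolar genes at 0.04, cone genes at 0.03, T cell genes at -0.10 and microglia genes at -0.15, and whether the rod genes differ from these lists was not tested. Of the 72 regions, 9 sat at the end of another protein-coding gene. Of these, 8 were at no end or start site of the rod gene. Without those of the 9 that had a peak in all lists, the medians over 26 regions were 0.17, 0.36 and 0.34. The region shared by the ends of Crx and Crxos was among those left out, while that at the end of Atg16l1 had not been tested. Regions with a peak in all lists are the stronger ones, so these medians leave out the start sites of Cnga1, Pde6b and Nr2e3.

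**Figure D4:**
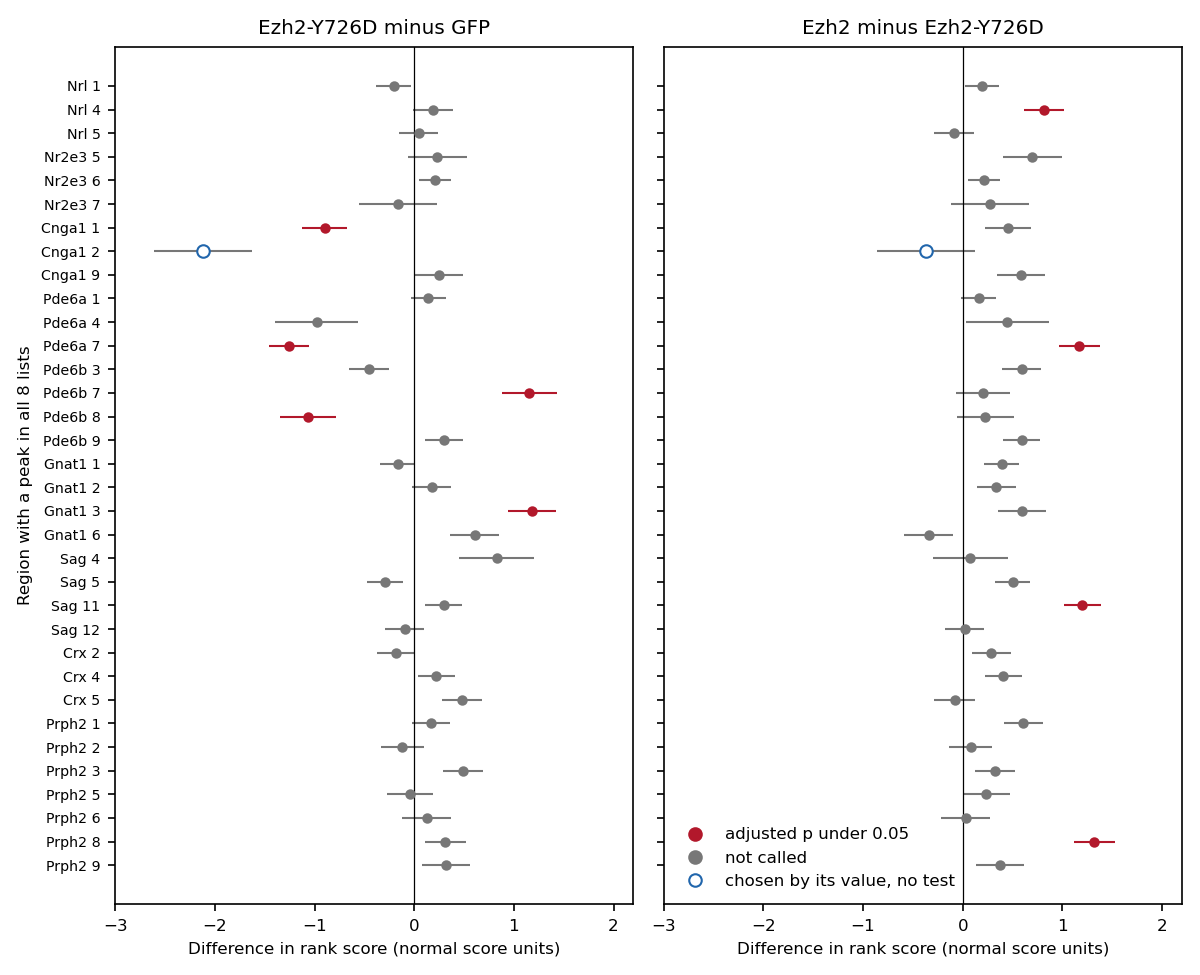
Difference in rank score (x axis, normal score units, points with SE bars from limma) of the 34 rod gene regions with a peak in all 8 lists (rows), for Ezh2-Y726D minus GFP on the left and Ezh2 minus Ezh2-Y726D on the right, red where the adjusted p was under 0.05. The open blue circle marks the Cnga1 region chosen by its value, and on the right 30 of 34 points lie above 0, with Prph2 8 the farthest at 1.32.

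The pattern at start sites was compared with rod genes outside the chosen set. Of 29 other rod genes, 22 had a promoter window, and 21 of these had a start-site peak in every GFP and every Ezh2 list, with 19 and 21 in the Ezh2-Y726D lists. No other rod gene lost its start-site peak in an Ezh2 list, and the remaining gene, Nxnl1, had none in any list. Where the start-site region had a peak in all lists (19 genes), Ezh2 was above Ezh2-Y726D in 3, among them Cngb1, the other subunit of the rod channel (0.89 ± 0.19, adjusted p = 0.0134, limma), the guanylate cyclase gene Gucy2f (1.17 ± 0.24, adjusted p = 0.0115) and Prom1, a disc membrane gene (0.63 ± 0.17, adjusted p = 0.0399). These 3 of 19 compare with 2.34% of 10881 genes with a tested start site, 1.87% being lower, and with 4 of 11 Müller glia genes. Gucy2f also fell by 1.00 ± 0.24 from GFP to Ezh2-Y726D (adjusted p = 0.0323). In the 267 regions around the 29 genes, 11 had peaks in all GFP and no Ezh2-Y726D list, or 4.12%. Around genes of other cells this share was 17.4% (microglia), 16.3% (T cell), 10.7% (cone), 6.25% (bipolar), 4.59% (RGC), 1.95% (amacrine) and 0.840% (Müller glia). Of the 132 regions tested around the other rod genes, 13 were higher and 1 lower with Ezh2 than with Ezh2-Y726D, or 9.85% and 0.758% against the backgrounds of 7.0% and 6.96%. TAATCC was present at 11 and TGCTGAC at 2 of the 22 genes with a promoter window, against 7.56% and 4.96% of all 17492 such genes.

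Marker genes of other cells moved with Ezh2-Y726D. Start-site peaks of 7 cone genes were found in 7, 7 and 7 with GFP, 7, 7 and 6 with Ezh2 and 4 and 3 with Ezh2-Y726D, and Opn1mw (a cone opsin), Arr3 (cone arrestin) and Pde6h were without a peak in both Ezh2-Y726D lists. Of 13 microglia genes, 10, 10 and 10 had a start-site peak with GFP, 11, 9 and 10 with Ezh2 and 2 and 1 with Ezh2-Y726D. Of 10 T cell genes, the numbers were 8, 9 and 9, 10, 9 and 9, and 2 and 2. Among those without a peak in either Ezh2-Y726D list were Cx3cr1 and Ptprc of the microglia list and Cd3e and Cd8a of the T cell list. Not every marker went this way. P2ry12, a microglia receptor gene, ranked at 17.1, 43.8 and 40.9 with GFP and at 63.2 and 60.3 with Ezh2-Y726D, and no Ezh2 list had a peak there. The T cell genes Cd5 and Tcf7 kept their peaks in both Ezh2-Y726D lists, Cd5 at 49.5 and 16.1 (53.9 to 59.9 with GFP) and Tcf7 at 79.7 and 85.6 (81.5 to 87.1 with GFP). Bipolar genes had 15 to 16 of 17 with every group, amacrine genes 10 to 12, 12 to 13 and 12 of 17 with GFP, Ezh2 and Ezh2-Y726D, and Müller glia genes 12, 11 to 12 and 12 to 13 of 14. Across all 17492 genes with a promoter window, 64.1% to 65.8% had a start-site peak in the 3 group means. Of these genes, 203 had a start-site peak in all GFP lists and in neither Ezh2-Y726D list, and 36 showed the reverse. The former held for 3 of 7 cone, 6 of 13 microglia and 6 of 10 T cell genes. The part of these cells in the Ezh2-Y726D values of the rod genes was not tested.

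**Figure D5:**
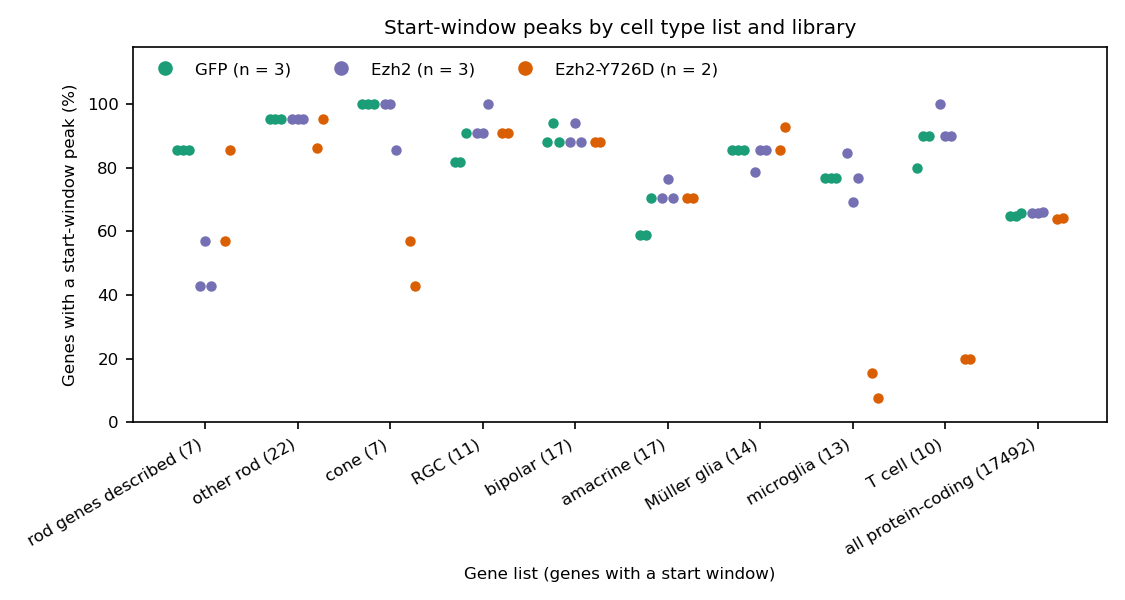
Percentage of genes with a peak over the promoter window (y axis) in each list of cell type genes (x axis, number of genes with a window in brackets), with 1 point per library. The rod genes described here are lowest with Ezh2 (3 or 4 of 7), the other rod genes stay at 19 to 21 of 22 in every library, and the cone, microglia and T cell genes are lowest with Ezh2-Y726D.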

How the data were processed

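ATAC-Seq libraries were made from sorted RGCs, and groups were taken from the sample titles (3 GFP, 3 Ezh2, 2 Ezh2-Y726D). The authors called peaks in each library separately and deposited 1 list of peaks per library on the mouse build GRCm38. The submitters' processing notes name cutadapt, Bowtie2, SAMtools, Picard, MACS2 and deepTools, and versions and settings are not given in the sources used here. The deposited fold is a ratio, the summit pileup divided by background near the peak, and was the measure ranked here. With each peak the authors also deposited its −log10 p and −log10 q from peak calling, whose minimum over a list was 1.31 to 1.38 for q. The deposited score is a rescaled form of them and was not used. The deposited summit offset gave summit positions. Read numbers are not in the lists, so no counting interval was computed and precision rests on the spread between libraries.

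Peaks were merged over the 8 lists, and regions within 10 kb of a gene were read out with positions from the RefSeq annotation of GRCm38.p6, counted from 1. A region was placed at a gene end when it reached within 1 kb of that end, and at the start site where it overlaps the promoter window. Folds of the 69493 regions with a peak in all lists were ranked within each list, turned into normal scores and compared with limma 3.58.1 (R 4.3.3, group means of all 8 libraries in 1 fit), with Benjamini-Hochberg adjustment over all regions and a threshold of 0.05. On simulated data, 0 regions were called with no change, and 200 of 200 shifted by 2 units were recovered with 8 unchanged regions called. The simulated noise had the same spread in every region, unlike the data. The shift was larger than any tested rise of a rod gene region, at most 1.32 (Ezh2 minus Ezh2-Y726D). The simulation therefore does not show how changes of that size, or regions of wider spread, would be called. No genome sequence was given, so sequences away from start sites were not analysed here. The members, gene lists and tests were chosen with earlier results of these data known. Named were, for each gene, the start-site or gene-end regions, the region with the highest mean percentile over all lists and every region called by rank or presence, and in other lists up to 5 genes with the largest start-site differences. The cone, microglia and T cell genes named with their peaks were chosen after their values were seen. The labels give no batch. Alternatives were ranking by −log10 p, centred log2 folds, lists of equal length, a peak in at least 6 lists, a −log10 q of at least 5, a peak over at least 0.5 of the region, a window of 1 kb, each library left out and 2 replicate blocks.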

Additional observations from a re-analysis of the deposited data

How the results depend on the processing

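Of the 10 differences of single regions past the threshold between Ezh2-Y726D and GFP or Ezh2 and Ezh2-Y726D, none changed direction under the alternatives run. Region 2 of Cnga1, by which the genes were chosen, is among the 10 and is a description only. It was not set aside from the rank counts of this paragraph. Ranked by −log10 p, 7 of 34 regions were called between Ezh2 and Ezh2-Y726D in place of 4 (backgrounds 8.47% higher and 5.73% lower). Between Ezh2 and GFP, given as a description, 4 in place of 9 were past the threshold (backgrounds 1.42% and 2.57%). In a window of 1 kb, which leaves 19 tested regions, the calls were 2 and 5. Where a peak had to cover 0.5 of the region, 8 regions in place of 4 had peaks in all Ezh2 and no Ezh2-Y726D list or the reverse. Against a mean difference of -8.83 peaks for Ezh2-Y726D minus GFP over the 9 windows, the value was -11.2 at a −log10 q of at least 5 and -12.7 with lists of equal length, and for Ezh2 minus GFP it was -10.0 in place of -7.67 with lists of equal length. With 1 library left out, rank calls ranged from 0 to 5 (Ezh2-Y726D against GFP), 2 to 5 (Ezh2 against Ezh2-Y726D) and 4 to 10 (Ezh2 against GFP), regions with peaks in 1 group only from 9 to 17, 4 to 11 and 7 to 11, and the differences in peak number from -11.3 to -6.33, -1.33 to 3.67 and -8.83 to -6.33. Where 1 library of Ezh2-Y726D was left, it was assumed to vary like the other groups. Counts of regions with peaks in 1 group only can only rise or stay the same when a library is left out. The cause of the changes under the alternatives was not tested.

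Replicate numbers did not pair the libraries: deviations of same-numbered libraries from their group means correlated between -0.015 and 0.048. With a replicate block by the titles, 4, 4 and 7 of the 33 regions without the chosen one were past the threshold in the 3 comparisons (5, 4 and 8 without the block). With a replicate block by the numbers in the peak names, which give Ezh2-Y726D the numbers 2 and 3, they were 1, 3 and 6. No longer called under the latter were Cnga1 1, Gnat1 3, Pde6b 7 and Pde6b 8 (Ezh2-Y726D against GFP) and Nrl 4 (Ezh2 against Ezh2-Y726D), with adjusted p between 0.0597 and 0.106 (limma). Under the former it was Pde6b 7 (0.0530). Depth is unknown, so for weak peaks, such as those at the Cnga1 and Nr2e3 start sites, the limit of detection cannot be given.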
